A study of Mus musculus with 4 samples.

Results

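This section describes 10 mature miRNAs from the proximal part of the imprinted Dlk1-Dio3 region on mouse chromosome 12, out of 577 miRNA names on the array. They were chosen by name, as the products of 7 hairpins that lie proximal to the large miR-379 to miR-410 cluster, from the gene Gtl2 (Meg3) onward, leaving out the hairpins usually placed antisense to Rtl1. In the array's spelling they are mmu-miR-770-3p, mmu-miR-673-3p, mmu-miR-673-5p, mmu-miR-337-3p, mmu-miR-337-5p, mmu-miR-540-3p, mmu-miR-540-5p, mmu-miR-665, mmu-miR-341 and mmu-miR-370, all of mouse, and the prefix is left out from here on. The rule that picks them uses names and positions and no measured value, but the members were chosen with earlier results of these data known. All RNA came from the mouse embryonic stem cell line A3-1, kept in both groups in DMEM with fetal bovine serum and the self-renewal cytokine LIF. Both groups received an siRNA for 48 h. In 2 replicates it was directed against GFP (siGFP, the control) and in 2 against Lin28a (siLin28a), and 100 ng of RNA per replicate was labelled with Cy3 for 1 single-colour miRNA array. The comparison asks which mature miRNAs depend on LIN28A. The labels do not say whether the 2 replicates of a group were separate cultures, so a p-value here covers the spread of these samples alone, and that spread may be technical. With 2 arrays per group, n = 2 throughout and precision is limited by that number. A miRNA array does not show how far Lin28a mRNA was reduced.

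The Dlk1-Dio3 region is imprinted: its protein-coding genes, among them Dlk1 and Rtl1, are expressed from the paternal chromosome, and its long noncoding RNAs and miRNAs from the maternal one. Expression of its maternal RNAs is a known mark of fully pluripotent mouse stem cell lines, and the region is often silenced in culture. A mature miRNA is cut from one arm of a hairpin, the 5p or the 3p arm, and finds its target mRNAs mainly through its seed, bases 2 to 8. LIN28A is an RNA-binding protein known for blocking the maturation of let-7 precursors, which it grips through a GGAG element in the loop between the arms. miR-770 is hosted by Gtl2 itself, and miR-370 has been studied chiefly in tumours and in liver metabolism.

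The mature sequences of the 7 members with usable signal are shown to let the seeds be compared, with the seed in capitals, 5′ to 3′, from RefSeq on build GRCm38.p6.
miR-770-3p: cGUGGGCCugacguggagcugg
miR-337-5p: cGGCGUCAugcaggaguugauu
miR-337-3p: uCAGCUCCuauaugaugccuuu
miR-540-3p: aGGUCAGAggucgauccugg
miR-665: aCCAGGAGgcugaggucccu
miR-341: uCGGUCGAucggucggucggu
miR-370: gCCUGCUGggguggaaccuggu
The arm of the 3 members named without one was taken from spacing: the ends of their probe targets lay as far from that of miR-540-3p as the ends of the RefSeq 3p arms do, to the base. All 10 members had a RefSeq entry, and 0 seeds were shared among them. Among the other mouse miRNAs in RefSeq, the seed of miR-673-5p recurs in 1 and that of miR-540-3p in 1, neither of them on the array. The members are therefore products of 1 genomic neighbourhood and not a seed family. Their content of G and C ran from 40.9% for miR-337-3p up to 72.7% for miR-770-3p. miR-341 is built mostly of repeats of the letters CGGU, with CGAU after the first, which can be read in its sequence.

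The position of each member is that of its probe targets in build mm9, per the file headers. miR-770-3p lies at chr12:110801963-110801975 and miR-673-5p at chr12:110810221-110810235. miR-337-3p lies at chr12:110824060-110824079, with miR-540-3p at chr12:110824337-110824351 and miR-665 at chr12:110824583-110824597. miR-341, at chr12:110849772-110849786, and miR-370, at chr12:110856522-110856536, lie farther on. Measured from miR-770-3p, the miR-337, miR-540 and miR-665 hairpins form a tight group 22.1 to 22.6 kb away, and miR-341 and miR-370 follow at 47.8 and 54.6 kb. Per RefSeq's gene spans on GRCm38.p6, miR-770 lies inside Meg3 (the current symbol of Gtl2), and miR-341 and miR-370 lie inside Rian, another maternally expressed noncoding RNA of the region. The miR-673, miR-337, miR-540 and miR-665 hairpins lie inside the span that RefSeq gives for the gene Rtl1. The description of these miRNAs as outside the Rtl1 antisense transcript therefore depends on which Rtl1 gene model is used. RefSeq also lists a hairpin, Mir3544, on the opposite strand of miR-337. None of its products is on the array.

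The loops between the arms are shown because LIN28A is known to bind there, as RNA, 5′ to 3′, from the end of the 5p arm to the start of the 3p arm.
miR-770 loop: ugagcaacgcca
miR-673 loop: cuccagagaaaauguugc
miR-337 loop: gcacagccau
miR-540 loop: ggccaaggguagac
miR-665 loop: auguuuuuaug
miR-341 loop: ugucagucagucgg
miR-370 loop: acacagcucaugagu
The letters GGAG were searched on the strand of the RNA. They occurred in 0 of the 7 loops, against 52 of 644 mouse hairpins with 2 annotated arms (8.07%) and 8 of 10 let-7 hairpins. With 3 bases of each arm added to the loop, the counts were 0 of 7 and 70 of 644 (10.9%). The 5p arm of miR-673 ends in GGAG directly before the loop, and the 3 added bases cut into those letters. The 0 of 7 therefore leaves out a match that borders the loop. Outside the loop, GGAG occurred in 5 of the 7 member hairpins, in miR-665 inside the seed itself, and 260 of all 644 hairpins (40.4%) held it somewhere. These are matches of letters and show nothing about binding.

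The array reads each member with 2 to 4 probes whose targets share the 3′ end of the miRNA and differ in length, printed on 5 to 10 spots each. In all, 33 probes read the 10 members. Feature Extraction flags a spot as well above background when it is clearly brighter than its surroundings, and a probe was used if siGFP or siLin28a had that flag on each of its 2 arrays. This held for 13 of the 33, and 12 of these 13 were well above background on all 4 arrays. It left 7 members to test among 231 miRNAs in all. miR-337-3p, miR-337-5p, miR-341 and miR-370 kept every probe. miR-540-3p and miR-665 each rested on 1 probe, the longest, and miR-770-3p on 2 of 4.

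**Figure D1:**
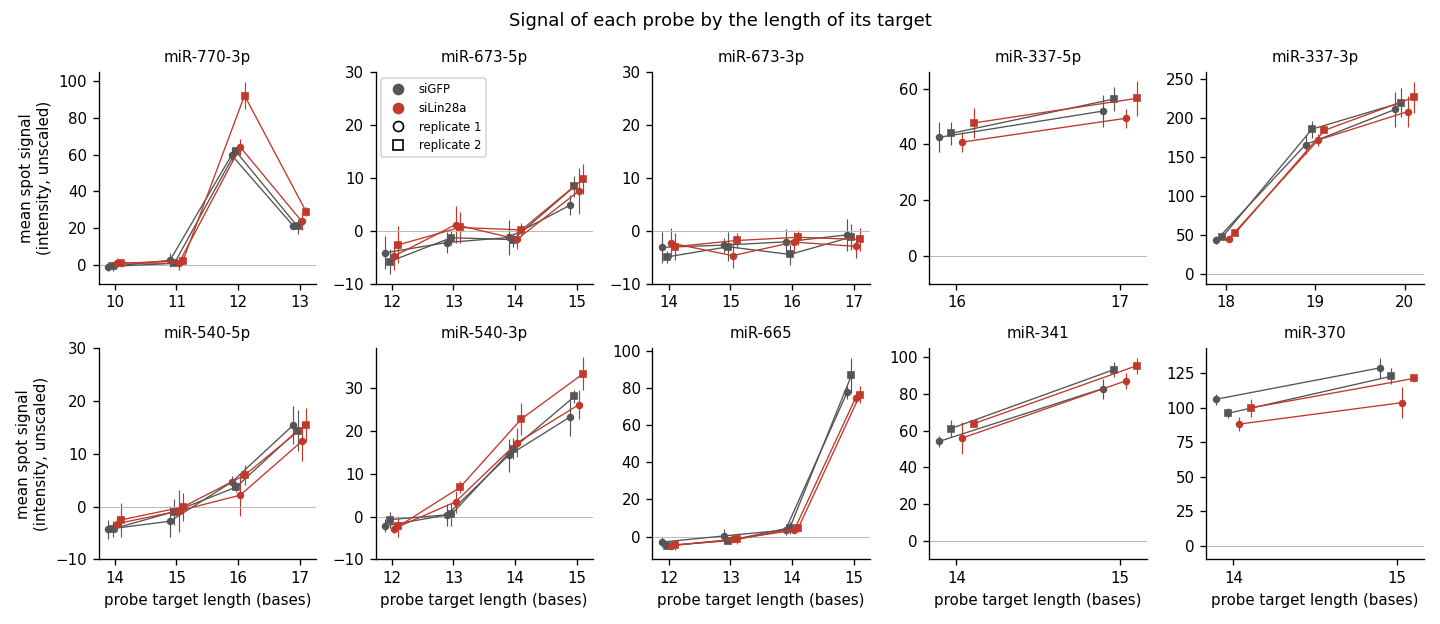
Mean spot signal of each probe (unscaled intensity, bars show the SD over its spots) against the length of its target in bases, for the 10 members on the 4 arrays. Signal of miR-665 appears with the 15-base target alone, that of miR-770-3p with targets of 12 and 13 bases, and no probe of miR-673-3p rises above 0.

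The probes showed where a member's signal came from. For miR-665 the 15-base target had mean spot signals of 77.6 and 86.7 in the controls against 74.8 and 76.4 after siLin28a, while its targets of 12 to 14 bases stayed between -4.89 and 4.74. The 15-base target of miR-540-3p had signals of 23.2 and 27.9 with siGFP and 26.0 and 33.2 with siLin28a. miR-770-3p was read through targets of 12 and 13 bases. Its longest target began at base 10 of the miRNA, so none of its probes covered the seed. For the other members with signal, the longest target began between base 1 (miR-337-3p) and base 8 (miR-370). No longest target of any member occurred in another mature mouse miRNA of RefSeq. Shorter targets were not checked. They include the 12-base target of miR-770-3p, which was brighter than its 13-base target on every array. For miR-337 the array's targets ended 2 bases (3p) and 4 bases (5p) before the ends that RefSeq gives today.

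The total gene signal is Feature Extraction's own summary over the probes of a miRNA and is not scaled between arrays. It is not a plain sum of the mean spot signals above. For miR-665 on siGFP replicate 1 it was 27.2, where the 15-base target alone had a mean spot signal of 77.6. By its detection flag, 7 of the 10 members were detected on all 4 arrays, against 242 of all 577 names, and 2 on none. The 2 were the arms of miR-673. miR-673-3p had total signals of -3.03 and -4.995 with siGFP and -4.33 and -2.81 with siLin28a, below 0 on every array. miR-673-5p had -0.99 and -0.17 against 0.80 and 2.86, each within its own error of 2.42 to 3.02 of 0 except the last. The highest of its values lay on siLin28a replicate 2, the array with the largest share of spots well above background. miR-540-5p was flagged detected on 3 arrays, with 4.54 and 4.74 for siGFP and 3.76 and 6.86 for siLin28a. The siGFP values lay inside the range of the siLin28a values, and no probe of miR-540-5p passed the filter, so it was not tested.

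**Figure D2:**
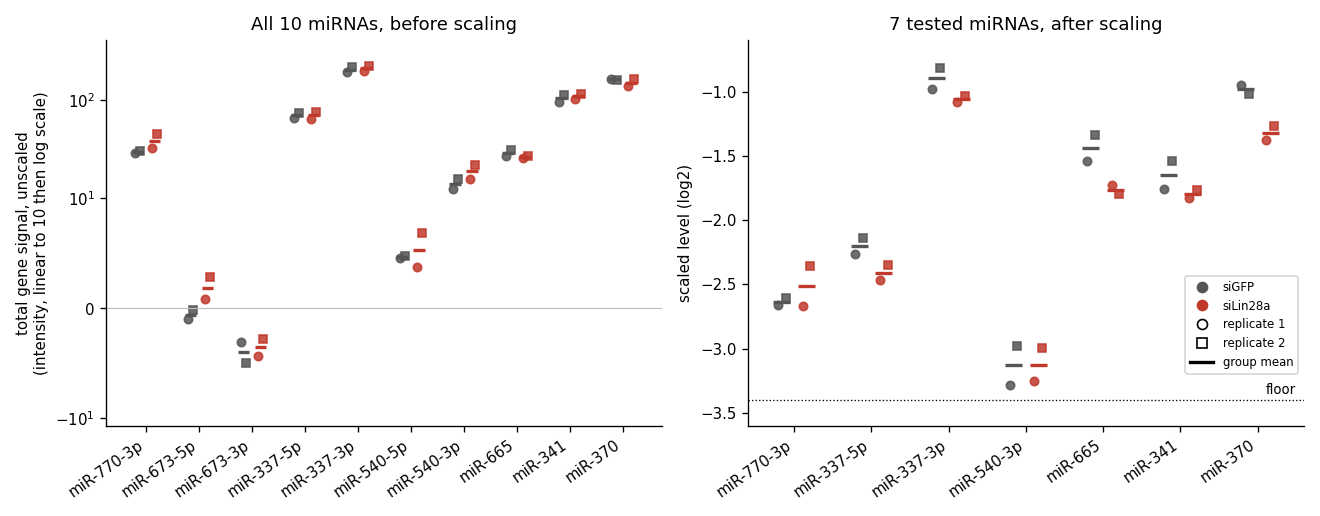
Left, total gene signal of the 10 members on each array (unscaled intensity, linear up to 10 and log above). Right, log2 scaled level of the 7 tested members, with points for arrays, bars for group means of 2 arrays and a dotted line at the floor of -3.40. After scaling, both siLin28a points lie below both siGFP points for miR-337-5p, miR-337-3p, miR-665, miR-341 and miR-370, and the groups overlap for miR-770-3p and miR-540-3p.

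For the test, the signals of each array were divided by the 75th percentile of those probes that were well above background on each of the 4, and log2 values were averaged over the kept probes of a miRNA. A scaled level of 0 therefore marks that percentile, and a difference of -1 a halving relative to it. The scaling counts here, because the siLin28a arrays were brighter overall. The percentile was 226 and 220 with siGFP and 248 and 265 with siLin28a. Levels of different members are not compared with each other, since their probes differ.

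The tested members had mostly lower mean levels with siLin28a, led by miR-370 and miR-665, but none of the 7 passed the test. At a limma adjusted p below 0.05, 2 of the 231 miRNAs (0.866%) had higher and 0 (0%) lower levels after siLin28a, and 0 of the 2 were members. At an unadjusted p below 0.05, 1 member was lower, against 26 of the 231 (11.3%), and 0 members were higher, against 31 (13.4%). The means of 5 of the 7 were lower with siLin28a, against 49.4% of all tested miRNAs. The same 5 were lower without overlap of the groups, against 30.7% of all tested, and 0 were higher without overlap, also against 30.7%. The median difference of the 7 was -0.16 on the log2 scale, and that of all 231 was 0.00. Before scaling, the groups overlapped for every one of these 5 in total gene signal except miR-665, and for miR-665 the siGFP replicate with the lower signal lay only just above the siLin28a values.

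miR-370, inside Rian and the last member before the distal cluster, had the most negative difference of the 7. Its scaled log2 levels were -0.95 and -1.02 in the siGFP replicates, against -1.37 and -1.27 after siLin28a. Both siLin28a arrays lay below both siGFP arrays, and the gap between the groups exceeded the gap between replicates. The difference was -0.34 (SE 0.10, 95% interval -0.64 to -0.04), a change of -20.9% relative to the scale. The limma p was 0.0368 unadjusted, and the limma adjusted p was 0.169. Its 2 probes gave -0.31 and -0.37. In total gene signal, before scaling, it had 163 and 159 with siGFP and 137 and 160 with siLin28a, so siLin28a replicate 1 alone was low and replicate 2 lay between the siGFP arrays.

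miR-665, in the tight group near miR-337, had scaled levels of -1.54 and -1.34 with siGFP and -1.73 and -1.79 with siLin28a. The groups did not overlap. The difference was -0.32 (SE 0.13, 95% interval -0.71 to 0.06, limma adjusted p = 0.232), from 1 probe on 5 spots. In total gene signal it had 27.2 and 30.8 in the controls against 25.6 and 27.1 after siLin28a, with errors given by Feature Extraction of 3.66 to 4.24, larger than the gap between the groups.

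The 2 arms of miR-337, the pair for which both strands of 1 hairpin could be tested, had similar differences. miR-337-3p had scaled levels of -0.98 and -0.82 with siGFP and -1.08 and -1.03 with siLin28a, a difference of -0.16 (SE 0.11, limma adjusted p = 0.370). miR-337-5p had -2.26 and -2.14 against -2.47 and -2.35, a difference of -0.21 (SE 0.11, limma adjusted p = 0.323). For both arms the siLin28a arrays lay below the siGFP arrays. All 5 of their probes were lower on mean, with differences of -0.11 to -0.19 for the 3p arm and of -0.17 and -0.24 for the 5p arm. The difference of the 3p arm exceeded that of the 5p arm by 0.04, and an exact two-sided permutation test over the 4 arrays gave p = 0.667, where the smallest p it can give is 0.333. With that limit the test cannot pass a threshold of 0.05, so it says nothing for or against a change in the balance of the arms. With 1 array left out, the excess ranged from 0.011 to 0.078, and the difference of miR-337-3p was -0.081 without siGFP replicate 2. The total gene signals of miR-337-3p overlapped between groups, at 189 and 215 with siGFP and 197 and 218 with siLin28a.

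miR-341, the repeat-like miRNA inside Rian, had scaled levels of -1.75 and -1.54 with siGFP and -1.83 and -1.77 with siLin28a. The groups did not overlap, but the siGFP replicates lay farther apart than the nearest arrays of the 2 groups. The difference was -0.15 (SE 0.14, 95% interval -0.55 to 0.25, limma adjusted p = 0.495), and both of its probes gave -0.15. It was -0.044 without siGFP replicate 2 and -0.26 without siGFP replicate 1.

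miR-540-3p and miR-770-3p had no lower mean as reported, but their direction depended on the processing. With the percentile over all probes and with normexp background correction, all 7 members had a lower mean. miR-540-3p had scaled levels of -3.28 and -2.98 with siGFP and -3.25 and -2.99 with siLin28a, close to the floor of -3.40. Replicate 2 was higher in both groups and the groups overlapped. The difference was 0.01 (SE 0.15, 95% interval -0.44 to 0.45, limma adjusted p = 0.989), which leaves room for a change of the size seen for miR-370. Its sign turned under 5 of the 18 alternatives, with values of -0.12 to -0.32.

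miR-770-3p, from within Gtl2 and the most proximal member, had scaled levels of -2.66 and -2.61 with siGFP and -2.67 and -2.36 with siLin28a. siLin28a replicate 1 matched the siGFP arrays, and replicate 2 was higher. The difference was 0.12 (SE 0.14, 95% interval -0.29 to 0.53, limma adjusted p = 0.587), and without siLin28a replicate 2 it was -0.035. It was also negative with the percentile over all probes (-0.024) and with normexp (-0.24). On its 12-base target the mean spot signal was 59.8 and 61.8 in the controls, and 64.1 and 92.1 after siLin28a, with SDs over 5 spots of 2.52 to 7.42, so the high value held across the spots of that array. The 13-base target had 21.4 and 21.02 with siGFP and 23.7 and 29.1 with siLin28a. On siGFP replicate 1 it was the dimmest probe well above background, and its value there set the floor.

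**Figure D3:**
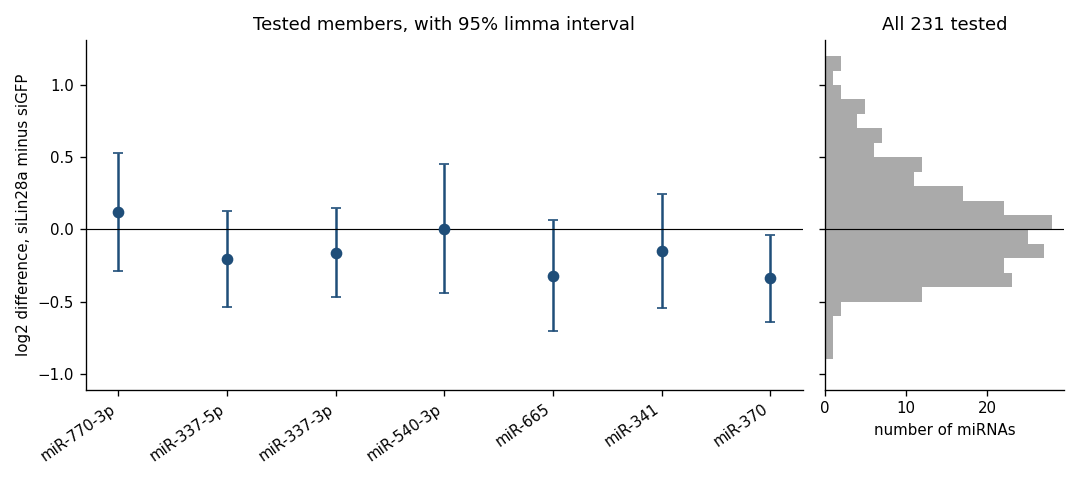
Left, log2 difference (siLin28a minus siGFP) of the 7 tested members with 95% intervals from limma, in genomic order. Right, the differences of all 231 tested miRNAs on the same axis. The interval of miR-370 alone, from -0.64 to -0.04, leaves out 0, before adjustment over all miRNAs.

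Among all 231 tested miRNAs, 13.0% had a more negative difference than miR-370 and 14.7% a more negative one than miR-665. For miR-337-5p, miR-337-3p and miR-341 the shares were 26.4%, 30.3% and 32.03%, and for miR-540-3p and miR-770-3p 51.1% and 64.9%. The members thus spread from the lower part of the distribution to above its middle, between its 10th percentile of -0.36 and its 90th of 0.55.

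The other miRNAs of the region give the setting. Of 8 tested names antisense to Rtl1 (of 10 on the array), 7 had a lower mean and 0 a higher one. Of these, 6 were lower without overlap, and the median difference of the 8 was -0.33. Of 28 tested names of the distal miR-379 to miR-410 cluster (of 50), 26 had a lower mean and 19 were lower without overlap, with a median of -0.25. None of these names passed at an adjusted limma p below 0.05, and 13 of the 36 had an unadjusted p below 0.05, all lower. Of all tested miRNAs, 30.7% were lower without overlap and 11.3% were lower at an unadjusted limma p below 0.05. The proximal median of -0.16 was closer to 0 than both, and the difference between the lists was not tested.

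**Figure D4:**
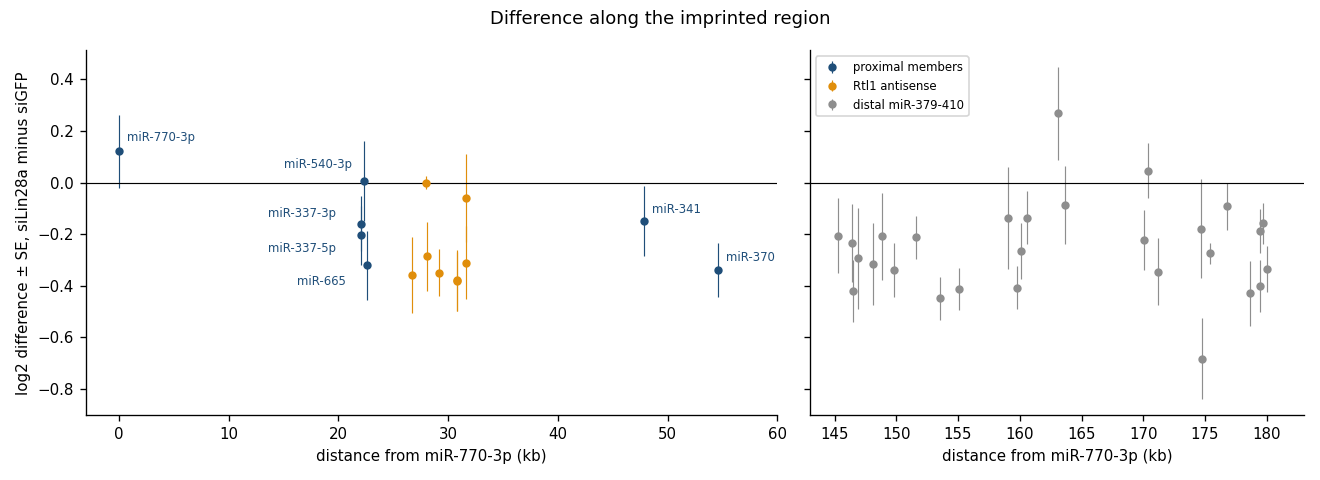
Log2 difference (siLin28a minus siGFP, bars show the SE from limma) against distance from miR-770-3p in kb, for tested miRNAs of the proximal hairpins, the Rtl1 antisense hairpins and the distal cluster, with a break between the panels. Most points of the 3 lists lie below 0, and miR-770-3p and miR-540-3p are among the few at or above it.

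The 3 tested miRNAs outside the members whose pattern over the 4 arrays was nearest to the mean pattern of the 7 were miR-369-5p, miR-300 and miR-494. Likeness was the root mean square distance between log2 values centred on each miRNA's own mean, which was 0.02, 0.03 and 0.04. All 3 belong to the distal cluster of the same region, which holds 28 of the 231 tested miRNAs, 26 of them with a lower mean. Their differences were -0.16 (SE 0.08), -0.14 (SE 0.10) and -0.21 (SE 0.08). miR-369-5p was near the floor on every array, at -3.21 and -3.11 with siGFP and -3.40 and -3.23 with siLin28a. It stood at the floor on siLin28a replicate 1. Among the members, miR-337-3p, miR-337-5p and miR-341 each lay 0.03 from the mean pattern, while miR-770-3p was the farthest at 0.15. Each member is part of that mean, which draws its distance in, so these values do not compare with those of the 3 outside. These are descriptions over 4 arrays.

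The cell type and the arrays bear on these values as follows. Names of the miR-290 to miR-295 cluster, typical of mouse embryonic stem cells, were detected on all 4 arrays for 13 of 14. Of the fibroblast or feeder list, 4 of 14 names were detected on all arrays and 9 on none, with summed total signals of 358 to 424 in the controls and 452.6 to 476 after siLin28a. The neural list was detected on all arrays for 3 of 7 names, with sums of 200 to 248 against 232 to 328, the blood list for 3 of 5, with sums of 125 to 144.5 against 138 to 176, and all 4 muscle names were undetected. The members' own sums were 581 to 636 in the controls and 573 to 670 after siLin28a. All 577 names summed to 145480 to 154500 in the controls and 162499 to 180050 after siLin28a. The stem cell list summed to 60475 to 60758 against 67132 to 69633. These sums are unscaled. After scaling, the median log2 difference was -0.07 for the 13 tested stem cell names and 0.05 for 4 of the fibroblast or feeder list. It was 0.12 for 3 neural names and 0.01 for 2 of the blood list. The part of overall brightness and of other cell types in the members' differences was not tested, and in bulk RNA fewer cells with a miRNA and less of it per cell cannot be told apart.

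**Figure D5:**
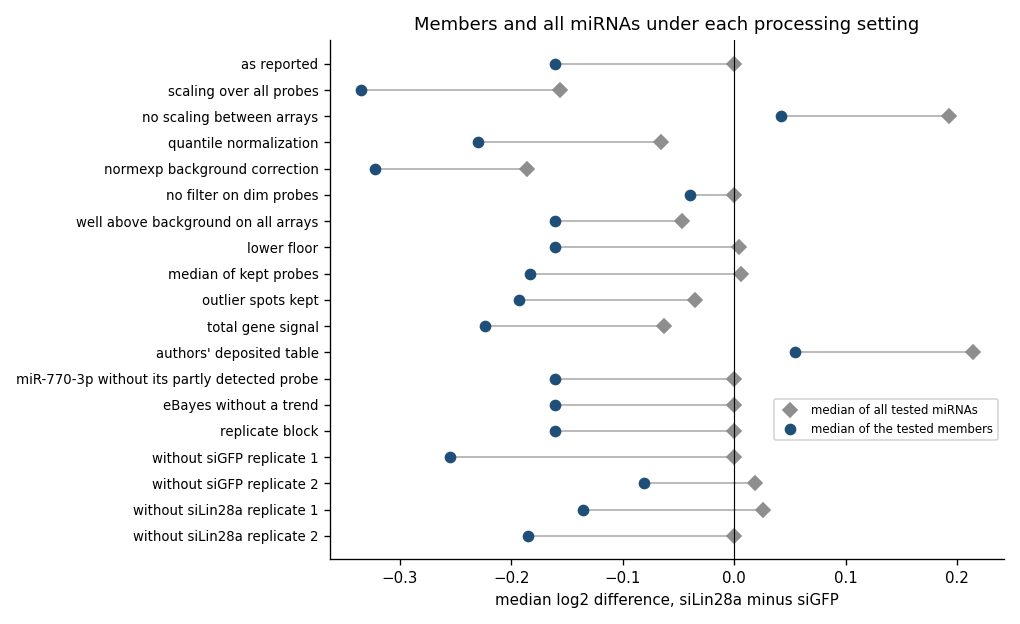
Median log2 difference (siLin28a minus siGFP) of the tested members (circles) and of all tested miRNAs (diamonds) under the reported processing and 18 alternatives. The members lie to the left of all miRNAs in each row. A change of the array divisor shifts both by arithmetic.

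A change of the array divisor shifts every log2 difference above the floor by the same amount. The members and all other miRNAs therefore move together by arithmetic. The median of all 231 was -0.16 when the percentile was taken over all probes and 0.19 with no scaling. The members' median was -0.33 and 0.042 under these settings. Members minus all miRNAs then gave -0.18 and -0.15, against -0.16 as reported. That these gaps lie close together follows largely from that arithmetic and is no separate support. With no scaling, miR-337-3p had a difference of 0.042 and miR-341 of 0.053, so the lower means of these 2 are relative to the other miRNAs. miR-370 and miR-665 had a negative difference under all 18 alternatives, and neither passed the test in any. Their size moved with the scaling: miR-370 was at -0.14 with no scaling, -0.12 with the authors' deposited table and -0.51 with the percentile over all probes. miR-665 was at -0.12, -0.13 and -0.495 under the same settings. It was at -0.080 with no filter on dim probes, where its shorter targets sat at the floor.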

How the data were processed

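Per the file headers, the 4 arrays (design 019119, 1 slide) were read with Agilent Feature Extraction 9.5.1.1. The submitters' processing notes give version 9.5.3.1. The authors deposited scanner files with intensity values on a linear scale, unscaled between arrays. Their processed intensity is the spot signal minus a background surface fitted within the array, and can be negative. The authors' deposited table holds the total gene signal, written as 0 where negative (100% of values above 10 lay within 5% of the scanner files).

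Of 11540 spots per array, outlier spots (3.21% to 4.32%) were left out, and none was saturated. Spots were averaged per probe. A probe counted as well above background if a share of 0.5 or more of its spots had that flag, and was kept if it did so on both arrays of a group (477 of 1712 probes, 231 miRNAs). Arrays were divided by the 75th percentile of the 425 probes with that status on every array. Values were floored at 0.0948 and taken to log2. The test was limma 3.58.1's moderated statistic (lmFit, then trended eBayes, R 4.3.3), taken two-sided and adjusted over the 231 by the Benjamini-Hochberg method, on 2 residual and 1.64 prior degrees of freedom. The fit was tested on simulated data with planted differences larger than that of any member. That test does not bear on differences of the members' size. All members are named, and outside them the 3 miRNAs with the nearest pattern over the arrays. The members and lists were chosen with earlier results of these data known.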

Additional observations from a re-analysis of the deposited data

How the results depend on the processing

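Over the 18 alternatives, 0 members passed the test (lowest limma adjusted p 0.0997, for miR-370), and the members' median stayed below that of all tested miRNAs. Where only the array divisor changed, that order was all but fixed by arithmetic. Their median of -0.16 was -0.33 with scaling over all probes, -0.32 with normexp, 0.042 with no scaling and 0.055 with the authors' deposited table, which is unscaled. With no filter on dim probes, which takes in all 10 members, it was -0.040, the smallest gap to the median of all miRNAs. Under that setting every probe of miR-673-3p, miR-673-5p and miR-540-5p sat at the floor on all arrays. So did the shorter targets of miR-665 and miR-540-3p. Values at the floor on all arrays show no difference, so this median is set in part by the floor. The number of members with a lower mean, 5 as reported, was 3 with no scaling and 2 with the deposited table. miR-337-3p was at 0.042 and 0.041 in these, miR-341 at 0.053 and 0.069, and miR-337-5p at 0.011 with the deposited table. miR-770-3p was at -0.024 with scaling over all probes and -0.24 with normexp. miR-540-3p was at -0.17 and -0.32 under these, and -0.16 with quantile normalization. The contrast of the miR-337 arms, 0.04 as reported, was 0.089 with quantile normalization, 0.13 with normexp and 0.011 to 0.078 with 1 array left out. Apart from the common shift with the array divisor and the floored probes, the cause of these changes was not tested.

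Of all miRNAs, 2 were called higher as reported, 0 with scaling over all probes or with probes well above background on all arrays, 5 with normexp, 8 with a lower floor or the total gene signal, 30 with the deposited table and 40 with no filter. The number called lower was 2 with normexp and 12 with no filter, where many dim miRNAs sat at the floor on every array and limma warned that its estimate was unreliable. With 1 array left out, where the lone array is assumed to vary like the other group, calls were 0 to 10 higher (0 without either siGFP array, 10 without siLin28a replicate 1, 7 without siLin28a replicate 2) and 0 to 1 lower, and the members' median ranged from -0.26 to -0.08. It was -0.08 without siGFP replicate 2 and -0.26 without siGFP replicate 1. In those 4 fits miR-770-3p ranged from -0.035 (without siLin28a replicate 2) to 0.28 and miR-540-3p from -0.15 (without siGFP replicate 1; -0.12 without siLin28a replicate 2) to 0.16, and the number of members with a lower mean from 5 to 7. Without the miR-770-3p probe not well above background on every array (left out after seeing the data), miR-770-3p was at 0.14. The median (-0.16, miR-337-3p) could not move.

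The labels give both groups replicates 1 and 2 but do not say that the numbers mark a pair. Replicate 2 minus replicate 1 correlated between the groups at r = 0.71 over 231 miRNAs, which are not independent. With the replicate number as a block, 2 miRNAs were called higher, 0 lower and 0 members, and miR-370 had a limma adjusted p of 0.124.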
